A study of Mus musculus with 12 samples.

Results

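The MHC class II genes described here are H2-Aa, H2-Ab1, H2-Eb1, H2-DMa, H2-DMb1 and Cd74, together with Ciita, which encodes their transcriptional coactivator. These 7 genes, of 20718 in the deposited table, were taken by their symbols, and they were selected on their levels in the same 12 libraries. Their values are therefore a description and carry no test. RNA was sequenced from testes of F0 mice, of a strain given as IRC mouse, in 4 groups of 3 libraries. The OV group received a virus for overexpression of lncRNA8276, and the KD group received a virus for its inhibition. The groups 5NC and 3NC are not spelled out in the labels and were taken as controls, 5NC for OV and 3NC for KD, from the order of the study's design statement. The labels give no age, vector, promoter or infected cell type, and they do not say whether libraries of a group are separate animals or pools. Any p-value thus measures the spread between these libraries only. The level of lncRNA8276 itself was not analysed here, so neither its overexpression nor its knockdown was checked.

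MHC class II molecules are surface proteins made of an alpha and a beta chain that show peptides from ingested protein to CD4 T cells. The invariant chain, encoded by Cd74, holds the new molecule in shape and guides it to the endosome, where the H2-DM protein swaps a remnant of that chain for peptide. Professional antigen-presenting cells such as macrophages, dendritic cells and B cells make them, and interferon gamma switches them on in other cells through CIITA. CIITA does not bind DNA itself but sits on a complex of RFX, CREB and NF-Y proteins at the X and Y boxes of class II promoters. In the testis, class II protein is known mainly from macrophages of the interstitium and of the tubule surface, and germ cells are not known to carry it.

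Class II chain genes and Cd74 are known to share the X and Y boxes in their promoters, so the promoter is shown for the members whose window was in the RefSeq table used (GRCm38.p6, the mm10 assembly). Windows covered 250 bases before to 50 bases after a gene start, and 4 of the 7 members had one: H2-Aa, H2-Eb1, H2-DMa and H2-DMb1. H2-Ab1, Cd74 and Ciita had none. The windows were searched on both strands for an X box core (ACNGATG), a cAMP response element (TGACGTCA) and a Y box core (TGATTGG). The letters of the last 2 were chosen after these promoters had been read. The stretches below run 5′ to 3′ on the gene's strand, with matches in capitals. H2-Aa is at chr17:34287844-34287943 on the minus strand, H2-Eb1 at chr17:34305747-34305846 and H2-DMb1 at chr17:34153071-34153170, both on the plus strand.
H2-Aa: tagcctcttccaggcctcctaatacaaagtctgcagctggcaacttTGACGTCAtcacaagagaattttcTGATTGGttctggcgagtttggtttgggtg
H2-Eb1: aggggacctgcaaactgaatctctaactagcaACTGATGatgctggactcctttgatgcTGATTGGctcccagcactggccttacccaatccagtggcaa
H2-DMb1: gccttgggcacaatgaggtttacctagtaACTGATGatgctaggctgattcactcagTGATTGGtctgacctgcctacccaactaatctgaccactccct

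In H2-Eb1 the X core lay at positions -88 to -82 from the gene start and the Y core at -61 to -55. H2-DMb1 had them at nearly the same places, -91 to -85 and -63 to -57. H2-Aa held the cAMP response element at -74 to -67 and the Y core at -50 to -44, with an X core only on the opposite strand at -232 to -226. Neither of the 2 windows of H2-DMa held a match, which says only that these letters are not in those windows. They lie at chr17:34122582-34122881 and chr17:34125268-34125567, inside the annotated gene (34119693 to 34139101) and not at its outer start. A promoter elsewhere in H2-DMa was not searched. Those windows differed in base composition, with 73% and 39% G or C.

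Over all 32851 windows, 9.85% held the X core on either strand, 1.79% the cAMP response element and 7.82% the Y core. An X core followed by a Y core 20 to 40 bases further on, both on the gene's strand, occurred in 6 windows (0.0183%). Of these 6, 4 belonged to class II genes: the members H2-Eb1 and H2-DMb1, and the related beta chain genes H2-DMb2 and H2-Eb2. The other 2 belonged to Olfr967 and BC051142. The Y core letters were chosen after the promoters shown above had been read, so nothing is read from these counts. Of 8 class II genes with a window, the remaining 4 (H2-Aa, H2-DMa, H2-Oa and H2-Ob) did not hold the pair in their windows. Those of H2-DMa lie inside the annotated gene. A match is a description of sequence and not evidence of binding in these testes.

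**Figure D1:**
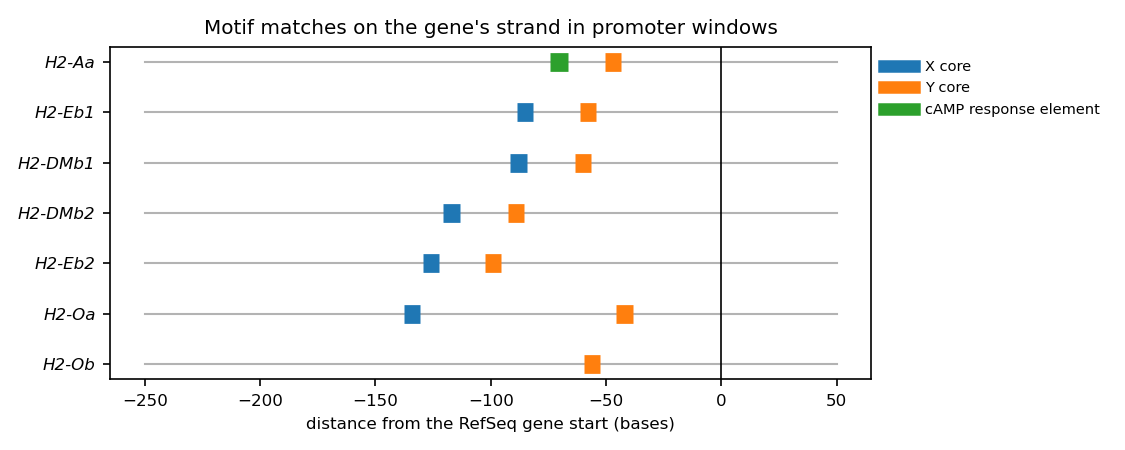
Matches to the X core, the Y core and the cAMP response element on the gene's strand, by distance in bases from the RefSeq gene start; grey lines span the window. H2-Eb1 and H2-DMb1 carry the X core at -88 and -91 and the Y core at -61 and -63; H2-Aa carries the cAMP response element at -74.

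All libraries had similar depth, from 15448442 to 16355720 reads, and no 2 of them were identical. The first principal component of the 16320 genes kept after a filter on low counts held 19.1% of the variance. It set 3 libraries apart from the rest, OV replicate 1 at 30.2, OV replicate 3 at 30.3 and 3NC replicate 2 at 29. OV replicate 2 was at 10.3 and every other library below 0. Germ cell markers summed to 13301 to 17224 CPM (reads per library, scaled to equal totals) in every library, and Leydig and Sertoli cell markers were present in all of them. In OV against 5NC, 8 of 8 Leydig markers had lower fitted levels (median log2 fold change -0.49), as did 9 of 10 Sertoli markers (median -0.17), with none called. Some genes of the epididymis, the duct that adjoins the testis, had higher means in 5NC. Crisp1 had 49.7 ± 36.0 FPKM in 5NC (SD, n = 3) and group means of 1.91 to 2.51 elsewhere, and Spink8 had 19.8 ± 11.8 in 5NC and 1.44 to 3.17 elsewhere. Of the 4 tested epididymis genes, only Spink8 was called higher in 5NC than in 3NC (adjusted p of 0.0333 by edgeR). Their median was -3.85 in OV against 5NC, but Rnase10 had 0.14 ± 0.20 (SE). Summed epididymis markers ran from 20.6 to 124 CPM in 5NC, so its libraries differed widely. The part of these differences in the results below was not tested.

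The classical chains and the invariant chain were highest in OV. Cd74 had 135.42, 88.39 and 47.86 FPKM (reads scaled to transcript length and library size) in OV replicates 1, 2 and 3. In 5NC it had 30.69, 25.32 and 11.05 FPKM, in KD 10.92, 14.72 and 16.71, and in 3NC 10.12, 46.64 and 11.46. All 3 OV libraries thus lay above all 9 others, but OV replicate 3 only just exceeded 3NC replicate 2. The fitted log2 fold change of Cd74 in OV against 5NC was 2.03 ± 0.65 (SE), a 4.1-fold difference in level.

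H2-Aa, the alpha chain of I-A, had 77.66, 51.57 and 34.72 FPKM in OV and 22.09, 15.43 and 7.21 in 5NC. It had 7.27, 7.37 and 9.89 FPKM in KD and 5.92, 31.14 and 6.72 in 3NC. Here too OV stood above every other library, with 3NC replicate 2 next. Its log2 fold change in OV against 5NC was 1.89 ± 0.65.

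H2-Ab1, the beta chain that pairs with H2-Aa, varied less. It had 66.03, 50.68 and 26.73 FPKM in OV, against 22.73, 26.31 and 14.91 in 5NC. In KD it had 14.92, 13.14 and 17.41 FPKM and in 3NC 14.48, 25.71 and 18.90. OV replicate 3 was practically level with 5NC replicate 2, and the 2 groups touched or not according to the scale used. The log2 fold change in OV against 5NC was 1.18 ± 0.33.

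H2-Eb1, the I-E beta chain, had 25.72, 12.69 and 5.73 FPKM in OV and 4.02, 5.28 and 2.95 in 5NC. KD had 2.51, 1.97 and 1.96 FPKM, and 3NC had 1.70, 4.73 and 2.07. The OV libraries spread over a wider range than those of any other group, and the lowest of them was close to the highest 5NC library. The log2 fold change in OV against 5NC was 1.86 ± 0.53.

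The 2 chains of H2-DM, the peptide exchange factor, had unlike ranges. H2-DMb1 had 5.11, 4.24 and 1.94 FPKM in OV, 1.44, 1.76 and 0.72 in 5NC, 1.31, 1.46 and 1.93 in KD and 0.94, 2.35 and 1.07 in 3NC. H2-DMa had 7.62, 9.29 and 4.83 FPKM in OV, 5.42, 5.70 and 5.25 in 5NC, 4.97, 5.81 and 5.48 in KD and 5.23, 4.52 and 5.37 in 3NC. For H2-DMa, OV replicate 3 fell among the controls, so the groups overlapped. The log2 fold changes in OV against 5NC were 1.52 ± 0.41 for H2-DMb1 and 0.39 ± 0.16 for H2-DMa. H2-DMa (gene 14998, chromosome 17, 34119693 to 34139101) overlaps the abundant testis gene Brd2 in the annotation. How reads in that overlap were assigned is not given in the sources used here. Brd2 itself differed by a log2 fold change of -0.07 ± 0.07 between OV and 5NC.

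Ciita was the scarcest member. It had 92, 129 and 35 reads in OV replicates 1, 2 and 3, against 11, 33 and 7 in 5NC, 6, 4 and 6 in KD and 1, 37 and 5 in 3NC. OV replicate 3 was no higher than 3NC replicate 2, and its count was close to that of 5NC replicate 2. The log2 fold change in OV against 5NC was 2.30 ± 0.83, the largest of the 7 with the largest error. Summed over a group, the reads were 256 in OV, 51 in 5NC, 43 in 3NC and 16 in KD, so the KD level rests on very few reads. Ciita (gene 12265, chromosome 16, 10480014 to 10531064) overlaps Dexi and a lncRNA gene in the annotation.

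**Figure D2:**
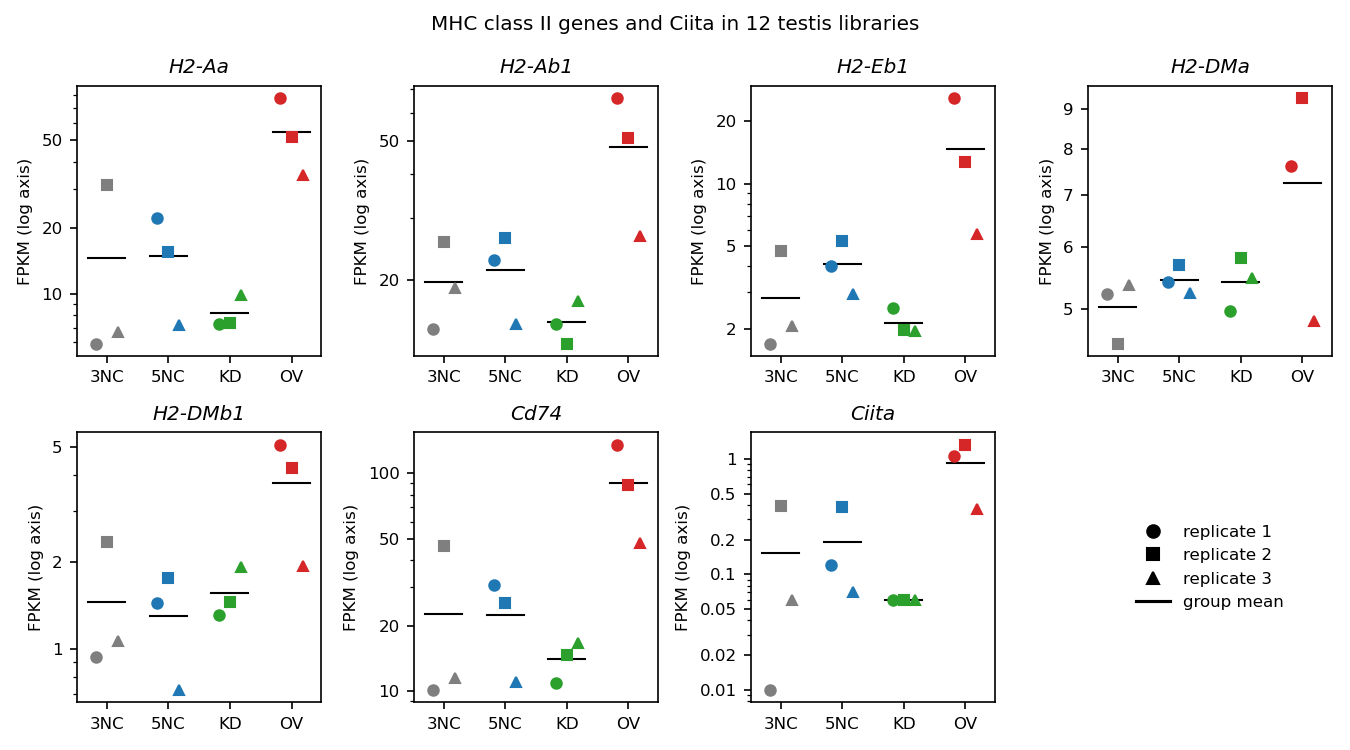
FPKM (log axis) of the 7 genes in 12 testis libraries, by group; symbols mark the replicate number and bars the group mean of 3 libraries. OV replicates 1 and 2 are the 2 highest libraries for all 7 genes, and 3NC replicate 2 stands above the other 3NC libraries for every gene except H2-DMa.

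Cd74 was the most abundant member per transcript length in OV, with a mean of 90.6 ± 43.8 FPKM (SD, n = 3). H2-Aa (54.7 ± 21.6) and H2-Ab1 (47.8 ± 19.8) followed. Their ranges over the 3 libraries overlapped, but H2-Aa was above H2-Ab1 in each OV library. H2-Eb1 (14.7 ± 10.1) and H2-DMa (7.25 ± 2.25) likewise had overlapping ranges, with H2-Eb1 above H2-DMa in each OV library, and H2-DMb1 (3.76 ± 1.64) and Ciita (0.917 ± 0.491) came last. The order of the means differed in the other groups. In KD, H2-Ab1 (15.2 ± 2.14 FPKM) was level with Cd74 (14.1 ± 2.94) and above H2-Aa (8.18 ± 1.48). The means of H2-Ab1 and Cd74 were also close in 5NC (21.3 and 22.4) and 3NC (19.7 and 22.7). H2-Aa was lower there, at 14.9 and 14.6. H2-DMa stood above H2-Eb1 in KD (5.42 ± 0.423 against 2.15 ± 0.315). The same held for the means in 5NC (5.46 against 4.08) and 3NC (5.04 against 2.83).

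Across groups, the mean FPKM of Cd74 was 90.6 in OV, 22.7 ± 20.7 in 3NC, 22.4 ± 10.2 in 5NC and 14.1 in KD. The last 3 groups did not differ beyond their spread. For H2-Aa the means were 54.7 in OV, 14.9 ± 7.45 in 5NC, 14.6 ± 14.3 in 3NC and 8.18 in KD, again with the last 3 overlapping. KD was the lowest group for 5 of the 7 genes, but no member had all 3 3NC libraries above all 3 KD libraries, an order that 8.74% of tested genes showed. KD libraries also lay close together, with summed FPKM of the 7 genes between 41.96 and 53.44, while the sum ran from 38.4 to 115.48 in 3NC, 42.16 to 86.51 in 5NC and 122.18 to 318.62 in OV.

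After TMM normalisation, 5 of the 7 members (H2-Eb1, Ciita, H2-DMb1, H2-Aa and Cd74) had every OV library above every 5NC library. Of all 16320 tested genes, 7.64% had that order. The members were chosen on this contrast, so nothing is read from the difference. On FPKM the count was also 5 of 7, with H2-Ab1 in place of Ciita. Against KD, 5 of 7 members (H2-Eb1, Ciita, H2-Aa, Cd74 and H2-Ab1) had every OV library higher, beside 9.74% of all genes.

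In the fit of all 4 groups with edgeR's quasi-likelihood test, genes with a Benjamini-Hochberg adjusted p below 0.05 counted as called. No member was called in OV against 5NC, where 0 of 16320 genes (0%) were called. The smallest adjusted p there was 0.239, and 1697 genes had an unadjusted p under 0.05. DESeq2 called 45 genes and limma voom with sample weights 7 in that comparison, with no member among them. All 7 members had higher fitted levels in OV, with a median log2 fold change of 1.86, while the median over all genes was -0.002. Against the other control group, 3NC, the log2 fold changes were 2.01 ± 0.65 for Cd74, 1.91 ± 0.65 for H2-Aa, 2.37 ± 0.55 for H2-Eb1 and 2.58 ± 0.85 for Ciita.

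Same-numbered OV and 5NC libraries deviated together from their group means over all tested genes, with correlations of 0.165, 0.149 and 0.109. With the replicate number as a block in a fit of those 6 libraries, 132 of 15950 genes (0.828%) were called higher in OV, and 5 of the 7 members were among them. Since the members were chosen on this contrast, nothing is read from that count. Cd74 then had a log2 fold change of 2.02 ± 0.11, and H2-Aa 1.93 ± 0.12. Ciita (2.36 ± 0.29), H2-DMb1 (1.5 ± 0.27) and H2-Ab1 (1.12 ± 0.13) were also called. H2-Eb1 (1.68 ± 0.52) and H2-DMa (0.36 ± 0.16) were not. The pairing was inferred from the same libraries, the labels do not state it, and the block in the fit of all 4 groups called 0 genes.

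KD against 3NC showed no common direction. No member was called, beside 29 of 16320 genes (0.178%) in all, and the median log2 fold change was -0.39 with 5 of 7 genes lower. Cd74 differed by -0.66 ± 0.67, H2-Aa by -0.81 ± 0.69, H2-Eb1 by -0.39 ± 0.59 and Ciita by -1.37 ± 1.14. H2-DMa (0.22 ± 0.16) and H2-DMb1 (0.13 ± 0.43) were on the other side of 0. Without 3NC replicate 2, the library in which 6 of the 7 genes were highest of their group, the median turned to 0.38 with 6 of 7 genes higher in KD. It also turned with all libraries kept, to 0.23 with 6 of 7 genes higher, in limma voom with sample weights, where Ciita had 0.996, Cd74 0.23 and H2-Aa 0.23.

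The 2 control groups differed little for these genes. In 5NC against 3NC no member was called, where 59 genes (0.362%) were, and the median log2 fold change was 0.10. H2-Eb1 had the largest value, 0.51, and H2-Aa and Cd74 had 0.02 and -0.03. Without 3NC replicate 2 the median rose to 1.03, with all 7 genes higher in 5NC.

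The difference between the OV effect and the KD effect called no member, beside 10 genes in all (0.0613%). Its median over the members was 2.25, with Ciita at 3.67 ± 1.40, H2-Aa at 2.71 ± 0.94, Cd74 at 2.69 ± 0.93 and H2-Eb1 at 2.25 ± 0.79. H2-Ab1 (1.54 ± 0.48) and H2-DMb1 (1.39 ± 0.60) were smaller, and H2-DMa was near 0 (0.17 ± 0.23). Without 3NC replicate 2 the median was 1.51.

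**Figure D3:**
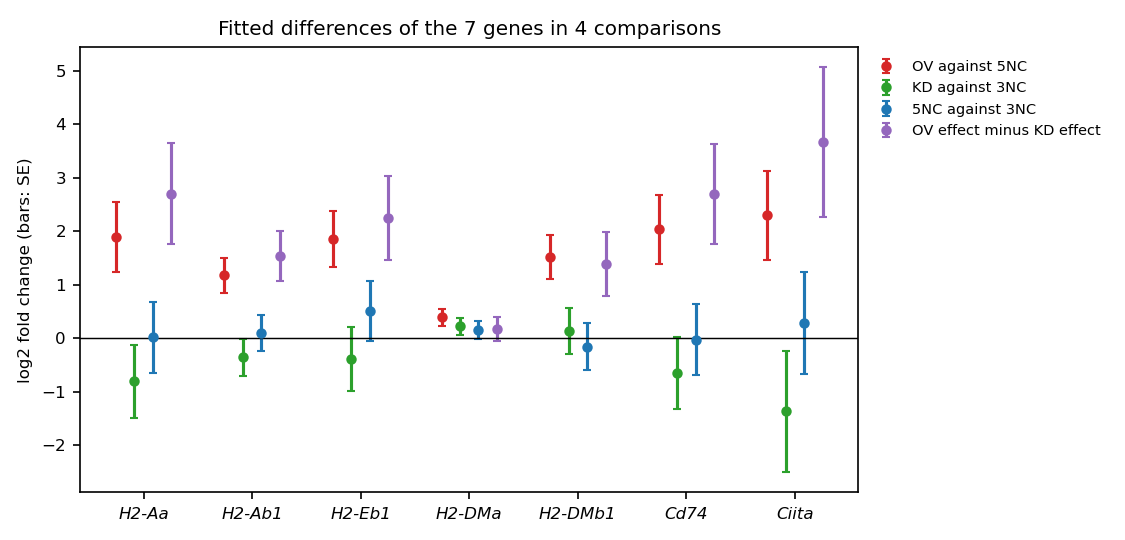
Fitted log2 fold changes of the 7 genes in 4 comparisons, with bars of 1 SE. OV against 5NC lies above 0 for all 7 genes, from 0.39 for H2-DMa to 2.30 for Ciita, and the bars of KD against 3NC are wide beside their values.

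Cd74 and H2-Aa kept an almost fixed proportion while both moved over a wide range. Across the 12 libraries the FPKM of Cd74 varied 13.4-fold and that of H2-Aa 13.1-fold, but their ratio stayed between 1.38 and 1.997, a 1.45-fold range. H2-Ab1 varied 5.03-fold and did not keep pace. Its ratio to H2-Aa was 0.85, 0.98 and 0.77 in OV replicates 1, 2 and 3, and 0.83 in 3NC replicate 2. In KD it was 2.05, 1.78 and 1.76, and 3NC replicates 1 and 3 had 2.45 and 2.81. On the FPKM scale H2-Ab1 exceeded H2-Aa in 8 libraries and was below it in the 4 libraries with most H2-Aa. The genes of one library share its depth and normalisation, and these ratios carry no test.

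**Figure D4:**
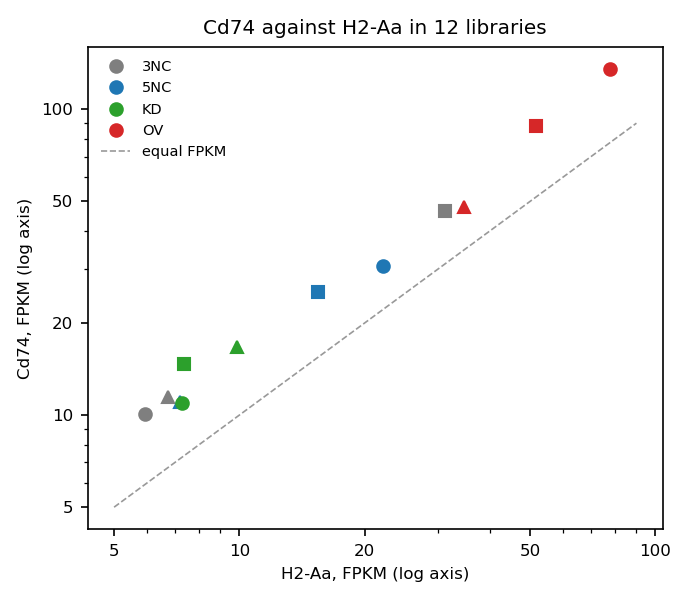
FPKM of Cd74 against FPKM of H2-Aa (both log axes) in 12 libraries; colours mark the group, symbols the replicate number and the dashed line equal FPKM. The points run parallel to the line at ratios of 1.38 to 1.997, with the OV libraries and 3NC replicate 2 at the upper end.

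H2-DMa was the member least like the rest. Its log2 level correlated with the mean of the other 6 at r = 0.675 over 12 libraries, while the remaining members reached 0.908 (H2-DMb1) to 0.979 (Cd74). Its FPKM ranged only 2.06-fold, and its ratio to H2-DMb1 went from 1.49 to 7.29. OV replicate 1 was the highest library for 5 of the 7 members, and OV replicate 2 for H2-DMa and Ciita. Of all tested genes, 8.33% were highest in OV replicate 1 and 5.47% in OV replicate 2. The members were chosen on their levels in these libraries, so nothing is read from the difference.

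Of the other class II chain genes, 5 of 6 were in the table and 1, H2-DMb2, passed the filter on low counts. H2-DMb2, a second beta chain of H2-DM, had a log2 fold change of 0.52 ± 0.47 in OV against 5NC and is a near copy of H2-DMb1, so reads could be split between them and both values are uncertain. Its counts were 17.53, 18.56 and 5.32 reads in OV and 10.3, 13.41 and 6 in 5NC. H2-Oa, an inhibitor of H2-DM found in B cells, had 4 reads in all 12 libraries, and its partner H2-Ob had 50.

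The list for class II transcription holds the RFX, CREB and NF-Y genes, coactivators and myeloid or lymphoid factors. None of its 17 genes was called in any of the 4 comparisons. Their median log2 fold change in OV against 5NC was 0.10, with 15 higher. Spi1, which encodes the myeloid factor PU.1, had 0.59 ± 0.35. Kat2b, a histone acetyltransferase, had 0.21 ± 0.11, and Nfyc, an NF-Y subunit, had -0.19 ± 0.11. Rfx5, the DNA-binding subunit of RFX, had 0.11 ± 0.09. Irf8, a myeloid factor, had 0.17 ± 0.42 there and 1.03 ± 0.44 in 5NC against 3NC.

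Genes of class II processing and traffic were not called either, with 7 of 16 higher in OV and a median of -0.05. Ctss, the protease that trims the invariant chain, had 1.36 ± 0.46. Cd44, which associates with the invariant chain, had 1.06 ± 0.60 and March1, a ubiquitin ligase for class II, 0.82 ± 0.41, both on few reads. Ctss had 27.53, 15.4 and 11.28 FPKM in OV, 9.29, 6.41 and 5.58 in 5NC, 4.89, 4.06 and 6.14 in KD and 3.8, 12.5 and 4.29 in 3NC. Its 4 highest libraries were those of Cd74. Sppl2a, which clears the last fragment of the invariant chain, had 0.35 ± 0.11, and the tetraspanin gene Cd82 had -0.36 ± 0.15. Of the 5 tested genes for costimulation and recognition none was called, and their median was 0.46, with 4 higher and 1 lower. Cd274, the ligand of PD-1, had 0.79 ± 0.33, Cd4, the co-receptor for class II, 0.69 ± 0.28 and Cd86, a costimulatory ligand, 0.46 ± 0.27. Icosl had 0.20 ± 0.27 and Cd83 had -0.39 ± 0.63.

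Interferon gamma pathway genes were not called in any comparison. In OV against 5NC, 15 of 19 were higher, with a median of 1.10, and in KD against 3NC, 3 of 19 were higher, with a median of -1.42. The latter depends on 3NC replicate 2. The mean log2 deviation of the list from its mean over all libraries was 0.99 there and -1.03 and -0.52 in 3NC replicates 1 and 3. In KD it was -1.12, -0.92 and -0.83, so KD overlapped the other 3NC libraries. The chemokine gene Cxcl9 had a log2 fold change of 2.07 ± 0.83 in OV against 5NC, the GTPase gene Gbp3 1.88 ± 0.64 and Irf2 0.34 ± 0.15. Irf1, which acts at the interferon-responsive Ciita promoter, had 12.42, 17.73 and 4.91 FPKM in OV and 4.75, 10.57 and 2.07 in 5NC. OV replicate 3 lay below 5NC replicate 2, so the groups overlapped. Ifng itself had 0 or 1 read in every library, so its level could not be compared at this depth. OV replicate 2 was the highest library for 14 of the 19 genes and for 2 of the 7 class II members. OV replicate 1 was highest for the other 5 members. Of all tested genes, 5.47% were highest in OV replicate 2 and 8.33% in OV replicate 1. The members and the list were chosen with results of these libraries known, so nothing is read from these counts.

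No marker of an antigen-presenting cell was called in any of the 4 comparisons. Of 18 macrophage markers, 17 had higher fitted levels in OV than in 5NC, with a median of 0.60 and none called, and all 18 had reads in every library. Their summed level was 504 to 616 CPM in OV, 481 to 504 in 5NC, 459 to 486 in KD and 450 to 510 in 3NC. Much of that sum was Aif1, which had 59528 of the reads over 12 libraries and did not follow the other markers. OV replicate 1 was the highest library for 13 of the 18, beside 8.33% of all tested genes. On the mean log2 deviation over the list, OV replicate 1 had 1.01 and OV replicates 2 and 3 had 0.15 and 0.08, below 5NC replicate 1 (0.38). C1qa, C1qb and C1qc, complement genes of tissue macrophages, summed to 39.8 to 104 FPKM in OV and 26.1 to 49.9 in the other groups.

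Per unit of C1q transcript, Cd74 was higher in every OV library than in every 5NC and KD library. Cd74 was chosen on its level in these libraries, and C1q was added after its values were seen. Nothing is therefore read from this order. The ratio of Cd74 to summed C1q FPKM was 1.20 to 1.44 in OV, 0.360 to 0.651 in 5NC, 0.390 to 0.513 in KD and 0.362 to 1.20 in 3NC, where replicate 2 gave the highest value. In bulk tissue, more cells of a type and more RNA per cell cannot be told apart. The part of macrophage number in the result was not tested.

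Markers of other presenting cells were less uniform. Of 13 dendritic cell markers, 8 were tested, with a median of 0.35 in OV against 5NC and 6 higher. Clec10a (439 reads over all libraries) had 0.92 ± 0.33, Naaa (935 reads) 0.47 ± 0.25, Flt3 (494 reads) 0.36 ± 0.24 and Zbtb46 (2344 reads) 0.25 ± 0.12, with none called. The 2 lower ones were Itgax (241 reads) at -0.53 ± 0.38 and Wdfy4 (3073 reads) at -0.17 ± 0.31. In KD against 3NC the list had a median of 0.27, also with 6 higher. The genes Clec9a, Cd209a and Siglech had 9, 14 and 27 reads over all libraries. Summed dendritic cell markers were 49.6 to 55.4 CPM in OV, 39.9 to 50.6 in 5NC, 46.0 to 58.3 in KD and 46.2 to 54.6 in 3NC, so OV overlapped all 3 other groups. Much of that sum was Wdfy4, Zbtb46 and Cd24a, with 3073, 2344 and 1809 reads. Of 9 B cell markers in the table, 5 were tested, with a median of -0.17 and a sum of 27.1 to 32.6 in OV against 27.3 to 30.3 in 5NC. Much of the B cell sum was Pax5 and Cd37, with 2641 and 2261 reads, while Cd79a and Cd79b had 21 and 34 reads in all. Of 14 T and NK cell markers, 7 were tested, with a median of 0.17 in OV against 5NC and 5 higher. All 14 summed to 15.8 to 28.3 CPM in OV, with OV replicate 1 the highest. The sum was 14.1 to 17.5 in 5NC, 13.8 to 15.5 in KD and 12.1 to 17.7 in 3NC. Cd3d, with 1265 reads, had the largest part. On the mean log2 deviation of the tested genes, OV replicates 1, 2 and 3 had 0.753, -0.197 and 0.065. Of 10 neutrophil and mast cell markers, 4 were tested, with a median of 0.14 in OV against 5NC, 2 higher and 2 lower. All 10 summed to 28.1 to 44.7 CPM in OV and 26.0 to 48.9 in 5NC, and much of that was Kit (5970 reads). In that list the neutrophil gene S100a9, which was not tested, had 77 reads in OV replicate 1 and at most 8 elsewhere. The part of these cells in the result was not tested.

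**Figure D5:**
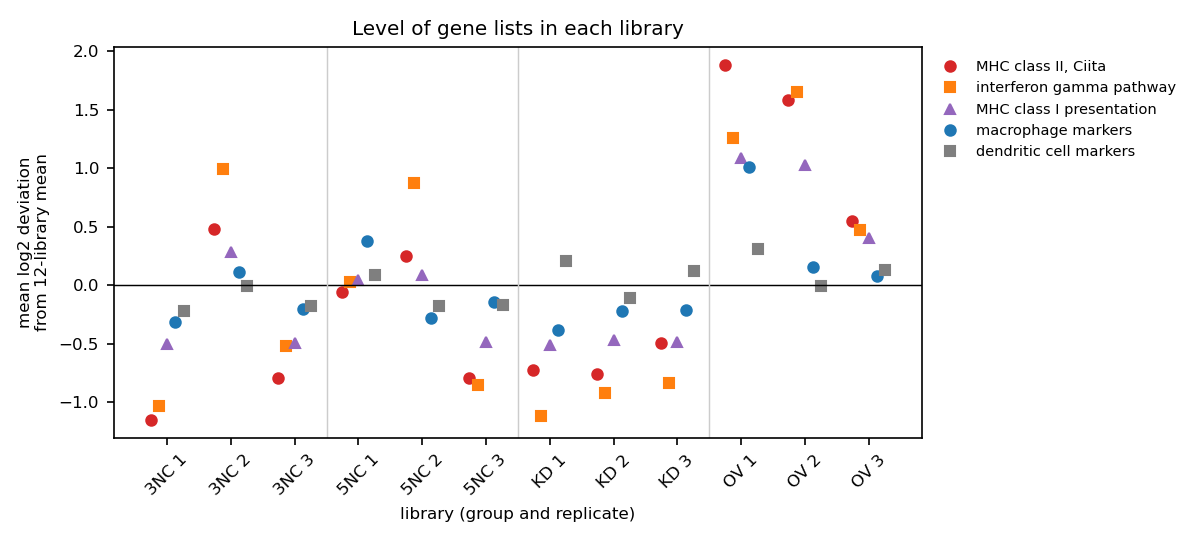
Mean log2 deviation of each gene list from its mean over 12 libraries, by library. Class II members reach 1.88, 1.59 and 0.55 in OV replicates 1, 2 and 3 and 0.49 in 3NC replicate 2, while macrophage markers reach 1.01 in OV replicate 1 and 0.15 and 0.08 in the other two.

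Genes of the class I pathway, which present peptides from inside the cell, shared part of the pattern. Of 14, 13 were higher in OV than in 5NC, with a median of 1.07 and none called. H2-D1, a class I heavy chain, had 1.65 ± 0.27, Nlrc5, the class I counterpart of Ciita, 1.05 ± 0.22, and Erap1, a peptide-trimming enzyme, 0.82 ± 0.21. These values share the OV and 5NC libraries with those of the class II members.

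The genes with levels most like the mean of the members were found by Pearson's r on log2 CPM over the 12 libraries, among 15205 genes with a mean of at least 1 CPM. The highest were Psmb8 (0.978), Oasl2 (0.974), Rtp4 (0.969), H2-T23 and Casp12 (both 0.964), Dtx3l (0.963), Ctss (0.961), Parp9 (0.960), Ifi44 (0.959) and Gbp2b (0.958). With group means subtracted, Ifi44 (0.960), Pla1a (0.958), Oasl2 (0.957), Rtp4 (0.953) and H2-T23 (0.950) led, over the same 12 libraries. The lowest values were those of Foxr1 (-0.891), Uros (-0.868), Rhbdd2 (-0.865), Cnn1 (-0.852) and Ror2 (-0.843). All points share their libraries, and the values carry no test.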

How the data were processed

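The table deposited by the authors gives expected counts per gene and library (per the file headers) beside normalised values, for which the unit FPKM was inferred here: over 5204 genes with more than 500 reads, the value per read followed the inverse library total to within 0.53%. Of the expected counts, 88% were whole within 1e-06, and they were rounded for testing. The build was mm10 per the submitters' processing notes. The aligner, counting program, annotation and strand setting were not given in the sources used here. A further 18 sample columns of the table match none of the 12 libraries and were left out. Identifiers matched the RefSeq gene table of GRCm38.p6 for 20560 genes (99.2%), which gave the coordinates.

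Testing used edgeR 4.0.16 (R 4.3.3; robust quasi-likelihood fit of 4 groups, TMM, prior count 0.125), after a filter with a minimum count of 10 and total of 15 that left 16320 genes. The common biological coefficient of variation was 0.13. The SE, approximate, is the fold change on the log2 scale divided by the square root of F. The scripts were tested on simulated data. Alternatives were DESeq2 1.42.0, limma 3.58.1 (voom with sample weights, and log2 FPKM with a pseudocount of 0.1 or 1), other filters and normalisation, the other control group, a replicate block and each library left out. Same-numbered libraries correlated at 0.165, 0.149 and 0.109 for OV with 5NC, which met the rule for pairing (all over 0.1), and at 0.0079, 0.0313 and 0.0558 for KD with 3NC, which did not.

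The members and gene lists were chosen with earlier results of these data known. Named genes were the members, the called genes of each pathway list or else its 3 of smallest p in OV against 5NC, and the genes of highest and lowest likeness; Rfx5, the marker genes, Ifng and others set beside a result were added after their values were seen.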

Additional observations from a re-analysis of the deposited data

How the results depend on the processing

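The log2 fold changes of the 7 members were above 0 in OV against 5NC in 161 of 161 values over all alternatives. They were above 0 in 55 of 160 for KD against 3NC, in 106 of 147 for 5NC against 3NC and in 146 of 147 for the difference of the 2 effects. These fits reuse the same libraries, and the members were chosen on OV against 5NC, so the counts are not independent checks. Ciita was not tested in the blocked fit of KD and 3NC alone, where it failed the filter. Genes called in OV against 5NC, KD against 3NC, 5NC against 3NC and the difference were 0, 29, 59 and 10 as reported. They were 45, 70, 151 and 87 with DESeq2, and 7, 106, 134 and 53 with limma voom with sample weights, which also turned the members' median in KD against 3NC to 0.23. On log2(FPKM + 0.1), limma called 16 in KD against 3NC, 31 in 5NC against 3NC and 6 in the difference, and on log2(FPKM + 1) it called 32 in 5NC against 3NC. On the latter scale, which compresses low values, the members' median was 1.07 in OV against 5NC and 1.40 in the difference. With the other control group, 52 genes were called for OV and 8 for KD.

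The replicate block in a fit of 2 groups called 215 genes in OV against 5NC (132 higher, 83 lower) and 77 in KD against 3NC, and the block in the fit of 4 groups called 0 in OV against 5NC, with a members' median of 1.76. Leaving out 1 library at a time gave 0 to 5 genes called in OV against 5NC, 10 to 34 in KD against 3NC, 16 to 76 in 5NC against 3NC and 4 to 23 in the difference. The members' median then ran from 1.24 to 2.13, -0.65 to 0.38, -0.26 to 1.03 and 1.51 to 2.64. Without 3NC replicate 2 and OV replicate 3 together, 36 of 16474 genes were called in OV against 5NC, H2-Eb1 and H2-DMb1 among them. In KD against 3NC, 18 were called. OV replicate 3 was the lowest OV library for each member. The members were chosen on this contrast, so nothing is read from their calls. In the same fit the medians were 0.38 in KD against 3NC and 1.03 in 5NC against 3NC. This fit and the blocked fit of OV and 5NC alone were the only ones that called a member. Fewer samples enter the fits that leave libraries out; otherwise the cause was not tested. Depth limits Ciita most, with 1 to 7 reads in 6 libraries.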
